A study of Homo sapiens with 6 samples.

Results

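The 50 genes described here act at the G1/S transition and in DNA replication. They were listed by symbol from their known roles in origin licensing, the replicative helicase, the polymerases, nucleotide supply and G1/S control. The list was chosen with earlier results of these data known. Of the 50, 49 were matched to an Ensembl gene among the 48162 genes of the count table, and all 49 were among the 15860 genes that passed the filter on low counts, with 213 to 21477 counts per sample. UHRF1 was not matched to an identifier and has no value. The measurements came from RNA sequencing of SiHa cells, a human cervical squamous carcinoma line, in 3 samples that received the duplex si-CNN3#1 and 3 that received the control duplex si-NC. CNN3 encodes calponin 3, an actin-binding protein. Both groups were grown in DMEM with 10% fetal bovine serum, received fresh medium 24 h into the transfection and were harvested 48 h after it, so that they differed by the duplex alone as far as the labels say. The comparison rests on 1 duplex in 1 cell line.

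The sense strands of the duplexes, without their overhangs, are shown because the labels give them as the difference between the groups.
si-CNN3#1: gcagaugggaaccaacaaa
si-NC: uucuccgaacgugucacgu

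Before a cell copies its DNA, the origin recognition complex, CDC6 and CDT1 load rings of MCM2 to MCM7 onto origins, and at S phase entry kinases and firing factors turn these rings into active helicases. Polymerases then copy both strands, held to the template by the PCNA clamp that the RFC complex loads, while RPA covers single-stranded DNA and ribonucleotide reductase and thymidylate synthase supply precursors. Many of these genes are transcribed at the G1/S boundary under E2F factors, and their mRNAs are widely used as signs of proliferation in tumour cells.

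Letters bound by E2F factors are shown first for 4 of the genes the results turn on, of which MCM2, MCM3 and PCNA fell and MCM6 rose. RefSeq promoter windows on GRCh38.p14, from 250 bases before to 50 bases after a start site, were found for 42 of the genes, 53 windows in all. The letters searched on both strands were TTTCCCGC, TTTGGCGC, TTTCGCGC and TTTGCCGC, which can overlap each other. Capitals mark the matches, and each window is written 5′ to 3′ on the strand of the gene, MCM2 on the plus strand at chr3:127598161-127598460, MCM3 on the minus strand at chr6:52284693-52284992, MCM6 on the minus strand at chr2:135876394-135876693 and PCNA on the minus strand at chr20:5126573-5126872.
MCM2: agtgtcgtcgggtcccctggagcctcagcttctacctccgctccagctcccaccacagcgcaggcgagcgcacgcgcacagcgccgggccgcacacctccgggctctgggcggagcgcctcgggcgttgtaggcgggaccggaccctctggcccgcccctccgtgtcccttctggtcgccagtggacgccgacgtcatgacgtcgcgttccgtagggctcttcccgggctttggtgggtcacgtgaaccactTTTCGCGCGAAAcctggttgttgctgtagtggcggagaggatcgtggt
MCM3: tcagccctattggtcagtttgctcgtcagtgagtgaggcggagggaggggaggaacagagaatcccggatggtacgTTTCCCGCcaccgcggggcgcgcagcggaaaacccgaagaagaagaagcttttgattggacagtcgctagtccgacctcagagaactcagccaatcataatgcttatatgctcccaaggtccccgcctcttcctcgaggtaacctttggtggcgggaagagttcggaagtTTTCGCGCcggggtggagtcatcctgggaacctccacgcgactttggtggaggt
MCM6: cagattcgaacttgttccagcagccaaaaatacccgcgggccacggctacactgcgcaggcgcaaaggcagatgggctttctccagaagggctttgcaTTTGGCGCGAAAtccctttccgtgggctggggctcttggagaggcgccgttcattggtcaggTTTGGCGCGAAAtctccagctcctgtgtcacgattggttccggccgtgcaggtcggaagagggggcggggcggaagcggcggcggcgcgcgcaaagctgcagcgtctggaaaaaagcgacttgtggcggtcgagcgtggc
PCNA: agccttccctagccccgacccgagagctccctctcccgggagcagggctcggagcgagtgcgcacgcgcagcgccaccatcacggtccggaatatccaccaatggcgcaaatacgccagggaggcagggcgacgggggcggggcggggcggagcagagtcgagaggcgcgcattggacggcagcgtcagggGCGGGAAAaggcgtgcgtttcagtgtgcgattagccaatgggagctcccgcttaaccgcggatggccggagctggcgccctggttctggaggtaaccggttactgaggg
At least 1 match stood in 21 of the 53 windows, or 39.6%, against 3.31% of all 35116 RefSeq windows of the same length and 4.83% of the 15337 windows of tested genes. MCM6 held 4 matches, as overlapping pairs at separate places, MCM2 held 2 that overlapped just past the start site, MCM3 held 2 apart from each other and PCNA held 1 in the window shown. Another PCNA window, at chr20:5119909-5120208 on the minus strand, held no match. Of the 9 called genes with a window, the letters were in MCM2, MCM3, MCM6, PCNA and TYMS, and were not in the windows of CHAF1A, POLD1, RFC5 and RRM2. By window this was 5 of 12, or 41.7%, near the 39.6% for all listed genes. By gene the letters were in 21 of the 42 listed genes with a window. Other elements of cell cycle promoters were counted in the same windows. The letters CCAAT were in 54.7% of the windows of the listed genes, 34.6% of all windows and 34.6% of the windows of tested genes. The CHR letters TTTGAA or TTCGAA were in 7.55%, or 4 of the 53 windows, against 16.4% of all windows and 11.9% of those of tested genes. These matches describe the letters in the windows, and the windows are not data from these cells.

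Counts summed to between 18147028 and 19026341 per sample with si-CNN3#1 and between 20287139 and 24976517 with si-NC, so each control sample was the deeper. CNN3 itself was at 26.0, 26.8 and 31.4 with si-CNN3#1 and 56.5, 51.7 and 57.2 with si-NC, in normalized CPM, the counts scaled to a common library size, and the log2 fold change was -0.97 (SE 0.055, adjusted p = 2.04e-20 by the quasi-likelihood test of edgeR, adjusted by Benjamini-Hochberg). The exact two-sided permutation test on the same values gave p = 0.1, the smallest that 3 against 3 allows. Of the 8 epithelial markers, 7 were tested, with mean levels from 1.20 FPKM (TP63) to 531 FPKM (KRT8) and a median of 20.02 FPKM (CDH1) with si-NC, and KRT5 had 4 to 11 counts. KRT8 and KRT18 fell, with log2 fold changes of -0.19 and -0.18, KRT17 and TP63 rose, with 0.23 and 0.68, and KRT19, EPCAM and CDH1 were not called. The markers of fibroblasts, endothelial cells and leukocytes that were matched had at most 109 counts in any sample, and none of those tested was called.

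With knockdown of CNN3 a minority of the replication genes passed the threshold for a change, and their shifts were small. In bulk RNA, fewer cells in a phase and less of an mRNA in each cell cannot be told apart. A gene is called here when the edgeR test gave it an adjusted p of 0.05 or less over all 15860 tested genes. By this rule 9 of the 49 genes fell (18.4%), 1 rose (2.04%) and 39 were not called. The background was 7.14% of all tested genes lower, 6.17% higher and 13.3% in either direction. Well expressed genes were called more often, and among the 9244 tested genes within the range of mean CPM that the listed genes span (12.4 to 839), 11.0% were lower, 8.24% were higher and 19.3% were called. The share of listed genes called in either direction, 20.4%, was near this second background, while the split by direction was 9 lower and 1 higher against 1019 lower and 762 higher. Over all tested genes 46.3% of the calls were higher, and this share was 60.0% with total counts as the only scaling and 38.4% after a correction for GC content and gene length, with 5 lower and 1 higher of the listed genes in the former and 9 lower and 1 higher in the latter. The log2 fold change was below 0 for 39 of the 49 genes, or 79.6%, against 49.3% of all tested genes and 50.9% of those in the same range of CPM. The median log2 fold change was -0.047 over the listed genes and 0.0023 over all tested genes. Every change was small, since all 49 log2 fold changes lay within 0.25 on either side of 0, and for 45 genes the whole 95% interval did. The 4 others were RFC5, MCM6, CCNE1 and CCNE2. Groups did not overlap for 17 of the 49 genes that were lower with si-CNN3#1 and 3 of the 49 that were higher, against 14.3% and 13.9% of all tested genes. The shares without overlap among tested genes in the same range of CPM were not computed, so this background does not allow for the level of the listed genes. The depth of the libraries moved with the groups. With every library thinned to the smallest total, 8 genes were called lower and 1 higher, MCM4 (adjusted p = 0.0502) and CHAF1A (adjusted p = 0.0598) no longer being called and SLBP being called lower (adjusted p = 0.0375). The part of depth in the calls was not tested.

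**Figure D1:**
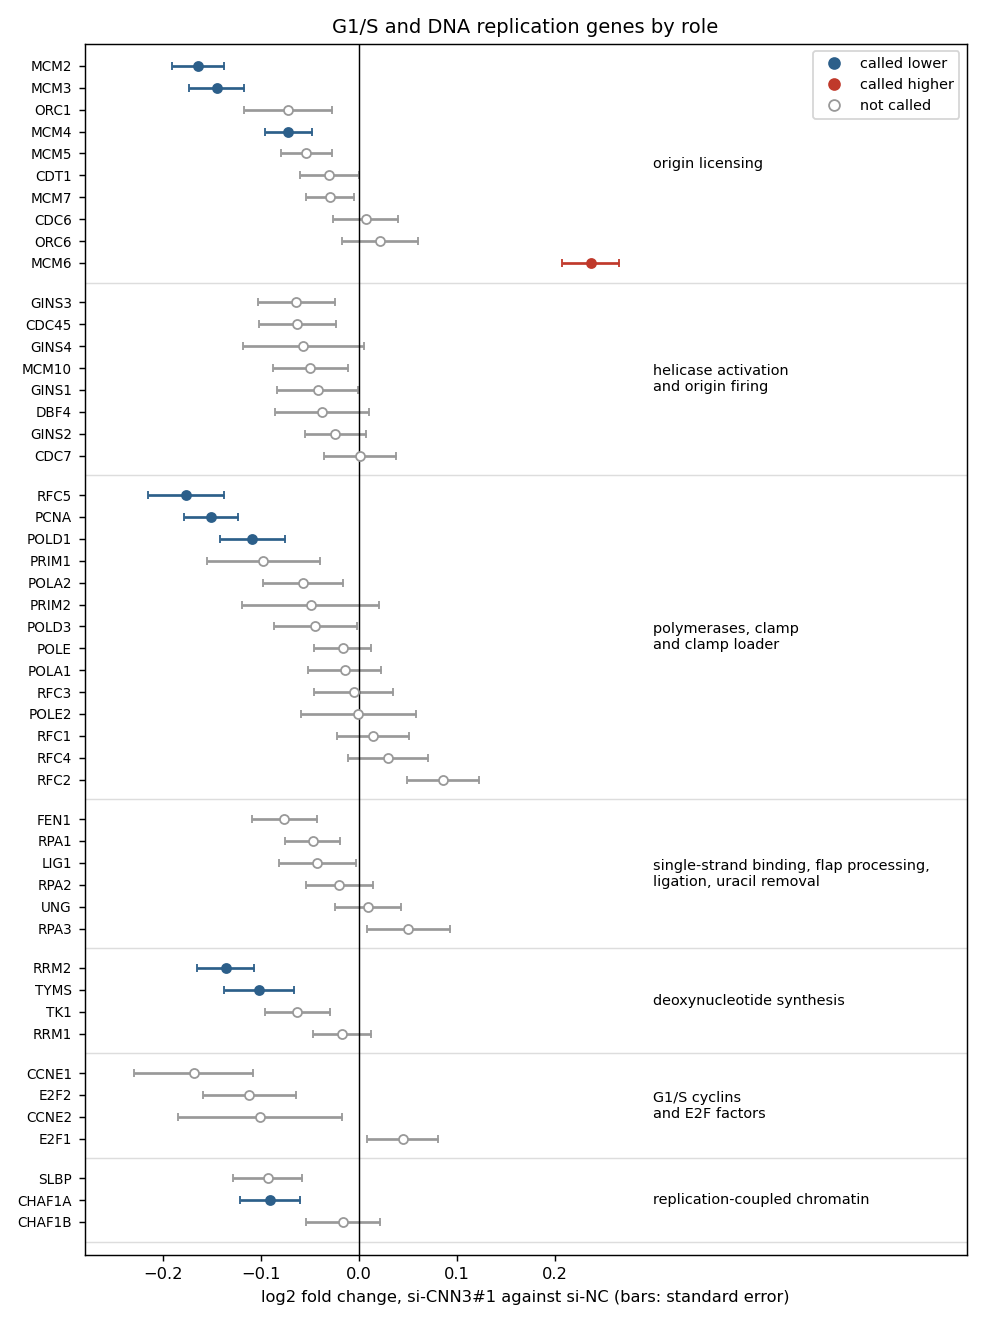
Log2 fold change of each of the 49 genes (x axis, si-CNN3#1 against si-NC, with bars for the standard error) by role, with filled points for the 9 genes called lower and the 1 called higher. MCM6 at 0.24 stands alone on the right, and RFC5 at -0.18 lies farthest to the left.

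Origin licensing held 4 of the 10 calls, in both directions, a share called of 40.0% of its 10 genes. For this and each role below, the background called in either direction is 13.3% of all tested genes and 19.3% of those in the same range of CPM. The median SE in this role was 0.029, against 0.037 over the listed genes, and the part of precision in the calls was not tested. MCM2, MCM3 and MCM4 fell, MCM6 rose, and MCM5 and MCM7, subunits of the same ring, were not called. MCM2, which carries histones as well as forming part of the ring, was at 398, 399 and 374 normalized CPM with si-CNN3#1 and 440.1, 439 and 434 with si-NC. Even the lowest control exceeded every knockdown sample, and replicate 3 of the knockdown was the lowest. The log2 fold change was -0.16 (SE 0.027, adjusted p = 4.66e-06). MCM3 was at 198, 201 and 200.3 normalized CPM with si-CNN3#1 and 223, 216 and 224 with si-NC, again with no overlap between the groups. Its log2 fold change was -0.15 (SE 0.028, adjusted p = 1.19e-04). MCM4, part of the catalytic core of the helicase with MCM6 and MCM7, was at 812, 827 and 814 normalized CPM with si-CNN3#1 and 849.8, 863 and 866 with si-NC. The groups were apart, but by little, with a log2 fold change of -0.072 (SE 0.024, adjusted p = 0.0353). The call of MCM4 was lost when any 1 library other than si-CNN3#1 replicate 2 was left out, with adjusted p from 0.0533 without si-NC replicate 1 to 0.126 without si-NC replicate 3.

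MCM6, the listed gene that rose, was at 206, 214 and 211 normalized CPM with si-CNN3#1 and 174, 179 and 183 with si-NC. Every si-CNN3#1 sample was above every si-NC sample, with a gap between the groups wider than the range within either. The log2 fold change was 0.24 (SE 0.029, adjusted p = 7.41e-09), and it was called under all 18 alternative settings, at 0.21 to 0.25. MCM5 was at 318, 309 and 315 normalized CPM with si-CNN3#1 and 326, 326 and 325 with si-NC, with a log2 fold change of -0.054 (SE 0.026, adjusted p = 0.185), and the groups did not overlap. MCM7 was at 600.3, 586 and 588 normalized CPM with si-CNN3#1 and 605, 605 and 601 with si-NC, with the lowest si-NC sample only just above the highest si-CNN3#1 sample, and a log2 fold change of -0.030 (95% interval -0.079 to 0.020, adjusted p = 0.499).

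Because MCM6 and its partners moved apart, its count was set over that of each other subunit within a sample, a comparison chosen after the values were seen and given with no test. The ratio of MCM6 to MCM2 counts was 0.516, 0.537 and 0.565 with si-CNN3#1 and 0.396, 0.407 and 0.421 with si-NC. For MCM3 the ratio was 1.04, 1.07 and 1.05 against 0.781, 0.826 and 0.817. Over MCM4, MCM5 and MCM7 the mean ratio with si-CNN3#1 was 124%, 122% and 120.3% of that with si-NC, and in each of the 5 ratios the groups did not overlap. That separation follows from the levels above, since MCM6 was higher and each other subunit lower in every si-CNN3#1 sample. The 5 ratios are therefore not added observations. MCM6 made up 8.34% ± 0.186 (SD, n = 3) of the counts of MCM2 to MCM7 after knockdown, against 6.80% ± 0.140 (SD, n = 3) in the controls. The summed level of the 6 subunits was 2524 ± 18.8 CPM (SD, n = 3) after knockdown, against 2627 ± 7.45 CPM (SD, n = 3) in the controls. The count ratios are within a library and do not depend on its depth or scaling.

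Per length, on the FPKM scale as deposited, MCM4 was the most abundant subunit in the si-NC samples at 741 ± 9.67 (SD, n = 3), followed by MCM7 at 393 ± 2.30 (SD, n = 3), MCM2 at 254 ± 1.97 (SD, n = 3) and MCM5 at 209.6 ± 0.922 (SD, n = 3). MCM3 at 114 ± 1.81 (SD, n = 3) and MCM6 at 106 ± 2.67 (SD, n = 3) were the least abundant, and they were the closest neighbours in this order, apart by more than the SD of either. The order depends on the gene lengths used. The lengths implied by the deposited FPKM were 1152 to 1929 bases, and with the merged exon lengths of GENCODE 29, 3650 to 7338 bases, MCM7 came first at 138 CPM per kilobase and MCM4 second at 123, with MCM5 at 44.4 and MCM6 at 43.4 last.

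**Figure D2:**
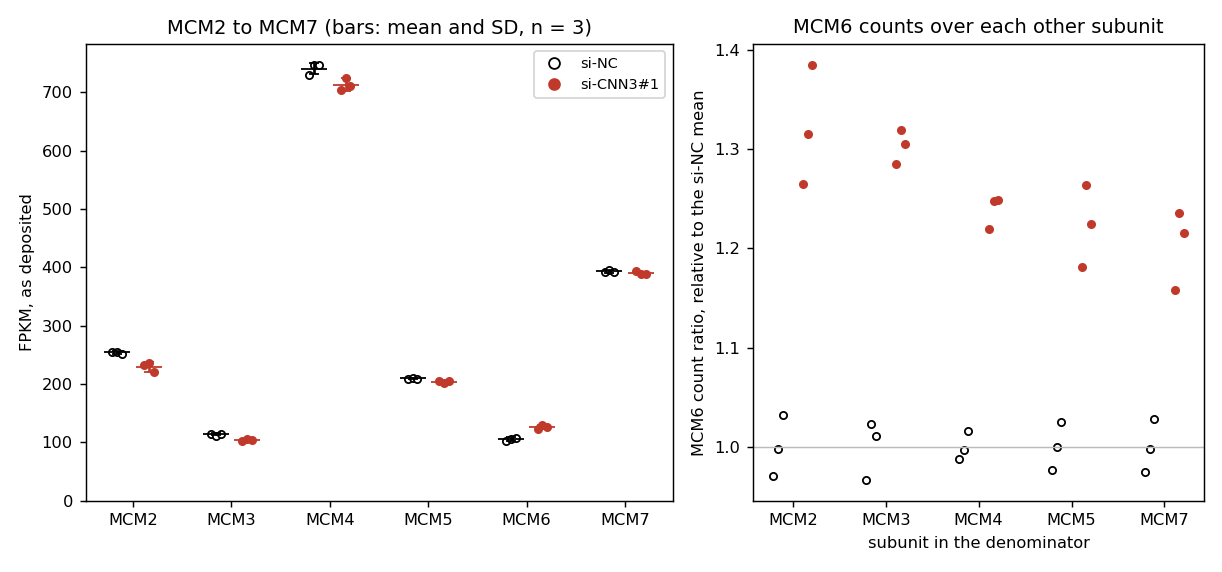
Left, deposited FPKM (y axis) of MCM2 to MCM7 in each sample with the mean and SD of 3 samples per group, and right, the ratio of MCM6 counts to those of each other subunit, relative to the si-NC mean. MCM6 rises from 106 to 126 FPKM while MCM2 and MCM3 lie lower with si-CNN3#1, and all 5 ratios are above the controls in every si-CNN3#1 sample.

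The loading factors themselves were not called. CDC6, an ATPase that recruits the MCM ring, was at 106, 107 and 103 normalized CPM with si-CNN3#1 and 106, 105 and 104 with si-NC, with the groups interleaved and a log2 fold change of 0.0067 (95% interval -0.061 to 0.074, adjusted p = 0.933). CDT1, its partner in loading, had a log2 fold change of -0.030 (adjusted p = 0.592). ORC1 and ORC6, subunits of the origin recognition complex, had log2 fold changes of -0.073 (adjusted p = 0.327) and 0.021 (adjusted p = 0.802). ORC1 was below the controls in every si-CNN3#1 sample.

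None of the 8 genes of helicase activation and origin firing was called by edgeR, DESeq2 or limma, and 0 of the 8 had an unadjusted edgeR p of 0.05 or less, while 7 of the 8 log2 fold changes were below 0. CDC45 and the GINS proteins join the MCM ring to form the active helicase. CDC45 was at 65.3, 64.4 and 65.7 normalized CPM with si-CNN3#1 and 67.9, 66.6 and 69.6 with si-NC and GINS3 at 64.5, 63.9 and 65.3 normalized CPM with si-CNN3#1 and 69.3, 66.4 and 66.8 with si-NC, and both were lower in every si-CNN3#1 sample than in any control. Their log2 fold changes were -0.063 (95% interval -0.14 to 0.016, adjusted p = 0.339) and -0.064 (95% interval -0.14 to 0.016, adjusted p = 0.333). GINS1, GINS2 and GINS4 had log2 fold changes of -0.042, -0.024 and -0.057, and MCM10, a scaffold needed for origin firing, had -0.050, all with overlapping groups. CDC7 and DBF4 form the kinase that phosphorylates the MCM ring. They had log2 fold changes of 0.00096 (adjusted p = 0.993) and -0.038 (adjusted p = 0.692).

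Among the polymerases, the clamp and the clamp loader, 3 of 14 genes fell and none rose, although RFC2 was higher at an unadjusted edgeR p of 0.05 or less. The share called was 21.4%, beside 13.3% of all tested genes and 19.3% of those in the same range of CPM. PCNA, the sliding clamp, was at 223, 228 and 226 normalized CPM with si-CNN3#1 and 249, 250.3 and 253 with si-NC. The si-CNN3#1 samples lay close together and well below the controls, with a log2 fold change of -0.15 (SE 0.027, adjusted p = 3.71e-05), and the call held under all 18 alternatives. RFC5, a small subunit of the clamp loader, was at 65.1, 68.1 and 68.8 normalized CPM with si-CNN3#1 and 78.2, 74.6 and 75.7 with si-NC. All si-CNN3#1 samples were below all controls, with replicate 1 the lowest, and the log2 fold change was -0.18 (SE 0.039, adjusted p = 7.44e-04). POLD1, the catalytic subunit of polymerase delta, was at 107, 106 and 104 normalized CPM with si-CNN3#1 and 113, 117 and 113 with si-NC, with the groups apart and a log2 fold change of -0.11 (SE 0.033, adjusted p = 0.0192). Without si-CNN3#1 replicate 3 the adjusted p of POLD1 was 0.0651, and without si-NC replicate 2 it was 0.135.

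The other subunits of the clamp loader were not called. RFC2 was at 83.5, 83.4 and 81.3 normalized CPM with si-CNN3#1 and 75.8, 78.0 and 80.01 with si-NC, higher in every si-CNN3#1 sample than in any control, with a log2 fold change of 0.085 (SE 0.037, adjusted p = 0.125). RFC1, RFC3 and RFC4 had log2 fold changes of 0.014, -0.0056 and 0.030, with overlapping groups. Within each sample, the ratio of RFC5 counts to those of RFC1, RFC2, RFC3 and RFC4 had a mean of 87.6%, 83.3%, 88.7% and 86.3% of that with si-NC, and the groups did not overlap in any of the 4 ratios, which were also chosen after the values were seen. For RFC2 the separation follows from RFC5 being lower and RFC2 higher in every si-CNN3#1 sample. All 4 ratios share RFC5, given above as lower in every si-CNN3#1 sample, and are therefore not added observations of its fall.

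POLA1, POLA2, PRIM1 and PRIM2 make up the polymerase alpha and primase complex that starts new strands. Their log2 fold changes were -0.015, -0.057, -0.10 and -0.049, none of them called. PRIM1 had 26.8, 28.8 and 27.4 normalized CPM with si-CNN3#1 and 29.1, 31.4 and 28.2 with si-NC, so the groups overlapped. POLE and POLE2, of the leading strand polymerase epsilon, had log2 fold changes of -0.017 (95% interval -0.074 to 0.041, adjusted p = 0.785) and -0.00087 (95% interval -0.12 to 0.12, adjusted p = 0.997). POLD3, an accessory subunit of polymerase delta, had a log2 fold change of -0.045, with si-CNN3#1 replicate 3 above all controls and the other two below them (adjusted p = 0.569).

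None of the 6 genes of single-strand binding, flap processing, ligation and uracil removal was called by edgeR, DESeq2 or limma, and 1 of them, FEN1, had an unadjusted edgeR p of 0.05 or less. FEN1, which cuts the flaps of Okazaki fragments, was at 108, 109 and 105 normalized CPM with si-CNN3#1 and 111, 114 and 115 with si-NC. The groups did not overlap, and the log2 fold change was -0.076 (SE 0.033, adjusted p = 0.125). RPA1, RPA2 and RPA3, the subunits of the single-strand binding protein RPA, had log2 fold changes of -0.047, -0.020 and 0.050. RPA1 was lower and RPA3 higher in every si-CNN3#1 sample than in any control, and RPA2 overlapped. LIG1, which seals Okazaki fragments, and UNG, which removes uracil from DNA, had log2 fold changes of -0.043 (adjusted p = 0.552) and 0.0091 (adjusted p = 0.907).

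In deoxynucleotide synthesis 2 of 4 genes fell, and all 4 log2 fold changes were below 0. RRM2, the small subunit of ribonucleotide reductase whose level changes with the cell cycle, was at 216, 231 and 226 normalized CPM with si-CNN3#1 and 239, 254 and 246 with si-NC. The highest si-CNN3#1 sample was below the lowest control, and the log2 fold change was -0.14 (SE 0.029, adjusted p = 4.82e-04). RRM1, the large subunit of the same enzyme, was at 192, 201 and 187 normalized CPM with si-CNN3#1 and 194, 200.1 and 193 with si-NC, with interleaved groups and a log2 fold change of -0.017 (95% interval -0.077 to 0.042, adjusted p = 0.782). TYMS, thymidylate synthase, was at 96.2, 93.7 and 98.9 normalized CPM with si-CNN3#1 and 106, 106 and 98.2 with si-NC. The control sample of replicate 3 lay among the si-CNN3#1 samples, and the log2 fold change was -0.10 (SE 0.036, adjusted p = 0.0457). TK1, the thymidine salvage kinase, had a log2 fold change of -0.063 (SE 0.033, adjusted p = 0.237). The call of TYMS was lost without si-CNN3#1 replicate 1 or 2 or si-NC replicate 1 or 2, with adjusted p from 0.101 to 0.207.

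**Figure D3:**
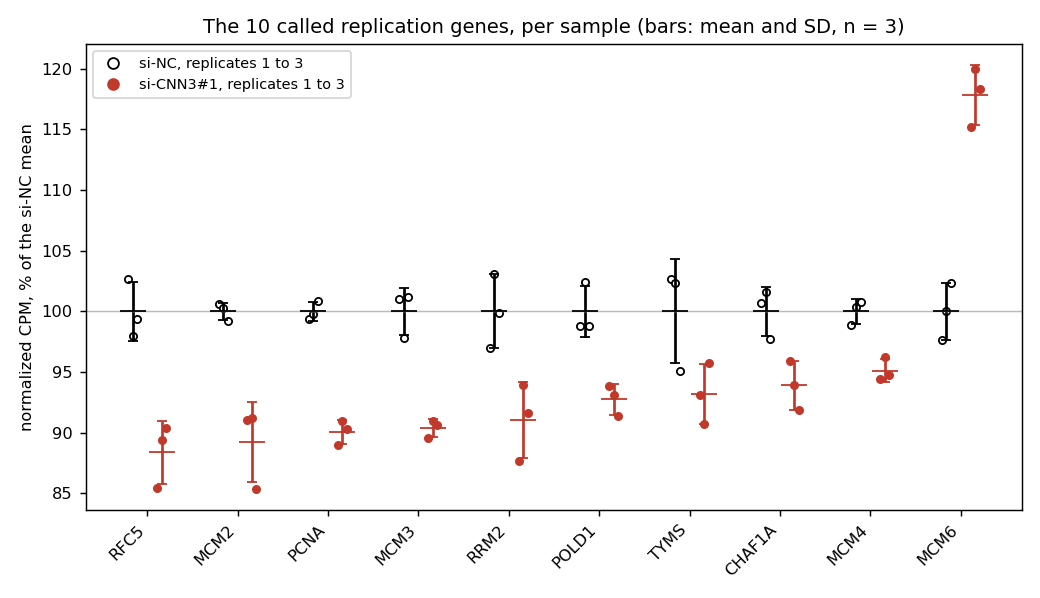
Normalized CPM of the 10 called genes in each sample as a percentage of the si-NC mean (y axis), with the mean and SD of 3 samples per group. MCM6 lies at 118% of the control mean, and the 9 genes that fell lie between 88.4% for RFC5 and 95.1% for MCM4.

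None of the 4 G1/S cyclins and E2F factors was called by edgeR, DESeq2 or limma with condition as the only term and all 6 samples, and 2 of them, CCNE1 and E2F2, had an unadjusted edgeR p of 0.05 or less. CCNE1, cyclin E1, which activates CDK2 at the G1/S transition, was at 26.3, 24.1 and 26.2 normalized CPM with si-CNN3#1 and 31.3, 28.2 and 26.7 with si-NC. All si-CNN3#1 samples were below all controls, but si-NC replicate 3 came close to them, and the log2 fold change of -0.17 (SE 0.061, 95% interval -0.29 to -0.047) had an adjusted p of 0.0552. Without si-NC replicate 3 its adjusted p was 0.0286, and with the replicate number as a block it was 0.0237. CCNE2, cyclin E2, had a log2 fold change of -0.10 (95% interval -0.27 to 0.066, adjusted p = 0.498) at the lowest FPKM of all listed genes with a value. E2F1, an activator of G1/S genes, was at 129.6, 133 and 115 normalized CPM with si-CNN3#1 and 124, 122 and 121 with si-NC, with 2 si-CNN3#1 samples above and replicate 3 below all controls. Its log2 fold change was 0.045 (95% interval -0.028 to 0.12, adjusted p = 0.491), and without si-CNN3#1 replicate 3 it was 0.11 with an adjusted p of 0.0315. E2F2, a second activator, was at 50.2, 48.7 and 45.7 normalized CPM with si-CNN3#1 and 54.3, 53.3 and 48.8 with si-NC, with overlapping groups. The log2 fold change was -0.11 (SE 0.047, adjusted p = 0.114), and without si-NC replicate 3 it was -0.16 with an adjusted p of 0.0408.

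Of the 3 genes of replication-coupled chromatin with a value, CHAF1A fell, a share called of 33.3% beside the same backgrounds of 13.3% and 19.3%. CHAF1A, the large subunit of the chromatin assembly factor that deposits histones behind the fork, was at 143, 139.6 and 137 normalized CPM with si-CNN3#1 and 149.6, 151 and 145 with si-NC. The groups did not overlap, and the log2 fold change was -0.091 (SE 0.031, adjusted p = 0.0397). Without si-CNN3#1 replicate 2 or 3 or si-NC replicate 1 or 2 the adjusted p was 0.0824 to 0.174. CHAF1B, its partner subunit, was at 78.3, 76.1 and 76.7 normalized CPM with si-CNN3#1 and 80.3, 77.9 and 75.7 with si-NC, with interleaved groups (log2 fold change -0.017, adjusted p = 0.842). SLBP, which binds the stem-loop of replication-dependent histone mRNAs, was at 84.8, 88.5 and 86.9 normalized CPM with si-CNN3#1 and 91.3, 92.2 and 94.1 with si-NC, lower in all si-CNN3#1 samples, with a log2 fold change of -0.093 (SE 0.035, adjusted p = 0.0717). It was called lower after thinning (adjusted p = 0.0375), after the GC and length correction (adjusted p = 0.0344) and with the replicate number as a block (adjusted p = 0.0323), while the GC and length correction ended the call of CHAF1A (adjusted p = 0.0555).

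Some of the called genes share exon bases with a gene on the other strand, and the strand setting of the counting was not given in the sources used here. TYMS shares 967 exon bases with ENOSF1, which had 91.5% as many counts as TYMS and a log2 fold change of 0.013. It also shares 183 bases with TYMSOS, which had 2.77% as many counts and fell with a log2 fold change of -0.66 (adjusted p = 0.00730), the same direction as TYMS. CHAF1A shares 20 bases with UBXN6, with 67.6% as many counts and a log2 fold change of -0.054 (adjusted p = 0.366). RFC5 shares 186 bases with WSB2, with 147% as many counts and a log2 fold change of 0.013. MCM2 shares 45 bases with TPRA1, with 15.3% as many counts and a log2 fold change of 0.12, opposite in sign to that of MCM2. Among genes that were not called, CCNE2 shares 1629 bases with INTS8, which had 296% as many counts and a log2 fold change of 0.12, opposite in sign to that of CCNE2. FEN1 shares 49 bases with FADS2 on the same strand, with 120% as many counts. FADS2 fell with a log2 fold change of -0.31 (adjusted p = 1.15e-10), the same direction as FEN1. PRIM1, CHAF1B and POLD3 share same-strand bases with NACA, MORC3 and AP001372.2, which had log2 fold changes of 0.053, 0.067 and 0.27, opposite in sign to theirs. Other uncalled genes overlap genes on the opposite strand, with signs both ways. GSE1 (-0.084) and SLC25A40 (-0.11) had the same sign as GINS2 and DBF4. SMYD4 (0.041) and UMAD1 (-0.044) had the opposite sign to RPA1 and RPA3. Whether shared reads moved any of these values was not tested. Pseudogenes named after a listed gene were annotated for DBF4, PCNA, RFC3, RFC5, RPA2, FEN1, UNG, RRM2 and TYMS. Those of any 1 gene took at most 7 counts together in any sample, so few reads were assigned to them. Pseudogenes under other names were not counted.

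Genes around the listed ones were read from lists of known function. Of 43 other replication genes, 9 fell and 1 rose, a share called of 23.3% against 13.3% of all tested genes and 19.3% of those in the range of CPM given above, with a median log2 fold change of -0.0092. ASF1B, a histone chaperone that works with CHAF1A, was at 93.3, 98.6 and 87.1 normalized CPM with si-CNN3#1 and 114, 121 and 115 with si-NC, lower in all si-CNN3#1 samples. Its log2 fold change was -0.33 (adjusted p = 5.65e-10), larger than that of any listed gene. SAMHD1, which degrades deoxynucleotides, had a log2 fold change of -0.33 (adjusted p = 1.89e-07), and TIMELESS, of the fork protection complex, had -0.17 (adjusted p = 7.80e-05). EXO1, a nuclease of mismatch repair, had -0.17 (adjusted p = 0.0117) and DNMT1, which copies DNA methylation at forks, had -0.084 (adjusted p = 0.0189). RNASEH2A, which removes ribonucleotides from DNA, rose with a log2 fold change of 0.13 (adjusted p = 0.0240).

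Of 32 other G1/S regulators tested, 5 fell and 2 rose, a share called of 21.9% beside the same backgrounds of 13.3% and 19.3%, with a median log2 fold change of 0.031. CDK2, the kinase partner of cyclin E, was at 66.6, 68.3 and 65.4 normalized CPM with si-CNN3#1 and 88.4, 94.5 and 87.1 with si-NC. The groups were far apart, and the log2 fold change was -0.43 (SE 0.039, adjusted p = 4.67e-13). CDKN1A, which encodes the CDK inhibitor p21, was at 142, 129.5 and 138 normalized CPM with si-CNN3#1 and 117, 108 and 107 with si-NC, higher in all si-CNN3#1 samples, with a log2 fold change of 0.30 (SE 0.035, adjusted p = 1.79e-09). CDKN2B, an inhibitor of CDK4 and CDK6, rose by 0.16 on the log2 scale (adjusted p = 0.0166). CDKN2C, another such inhibitor, had a log2 fold change of -0.13 (adjusted p = 0.0109) and TFDP2, a dimer partner of E2F factors, had -0.16 (adjusted p = 0.00122). CDK4 and E2F3 also fell, with log2 fold changes of -0.11 (adjusted p = 0.0250) and -0.13 (adjusted p = 0.0288). Calls of CDK2 and CDKN1A held under all 18 alternatives, whereas that of CDK4 held in 9 and that of E2F3 in 6. The log2 fold changes of CDK2 and CDKN1A were larger in size than those of CCNE1, E2F1, MCM6 or any other of the 49 listed genes.

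**Figure D4:**
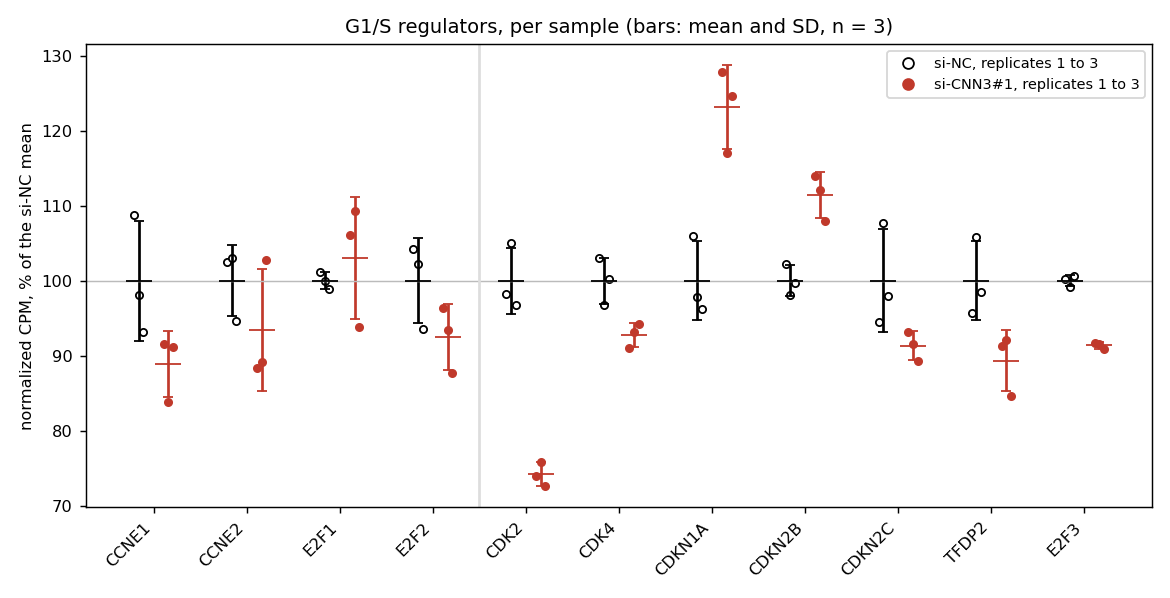
Normalized CPM of the 4 listed cyclins and E2F factors (left of the line) and the 7 called genes among the other G1/S regulators (right of it) in each sample as a percentage of the si-NC mean, with the mean and SD of 3 samples per group. CDK2 lies at 74.2% and CDKN1A at 123% of the control mean, while the samples of E2F1 with si-CNN3#1 fall on both sides of it.

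Genes of the G2/M phase and mitosis, in which replicated chromosomes are separated, were read in the same way. Of 39 such genes 15 fell (38.5%) and none rose by edgeR, DESeq2 or limma, with 1, HMMR, higher at an unadjusted edgeR p of 0.05 or less. The backgrounds for a fall were 7.14% of all tested genes and 11.0% of those in the same range of CPM. This list had a median log2 fold change of -0.077, against -0.047 for the 49 replication genes, and whether the lists differ was not tested. MKI67, the Ki-67 proliferation antigen, was at 608, 618 and 612 normalized CPM with si-CNN3#1 and 737, 730.1 and 736 with si-NC, with a log2 fold change of -0.26 (adjusted p = 1.76e-12). KIF20A, a kinesin of cytokinesis, had -0.23 (adjusted p = 3.31e-08), AURKB, a mitotic kinase, had -0.17 (adjusted p = 0.00150), CCNF, cyclin F, had -0.14 (adjusted p = 0.00294) and NUSAP1, a spindle protein, had -0.11 (adjusted p = 0.00399).

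**Figure D5:**
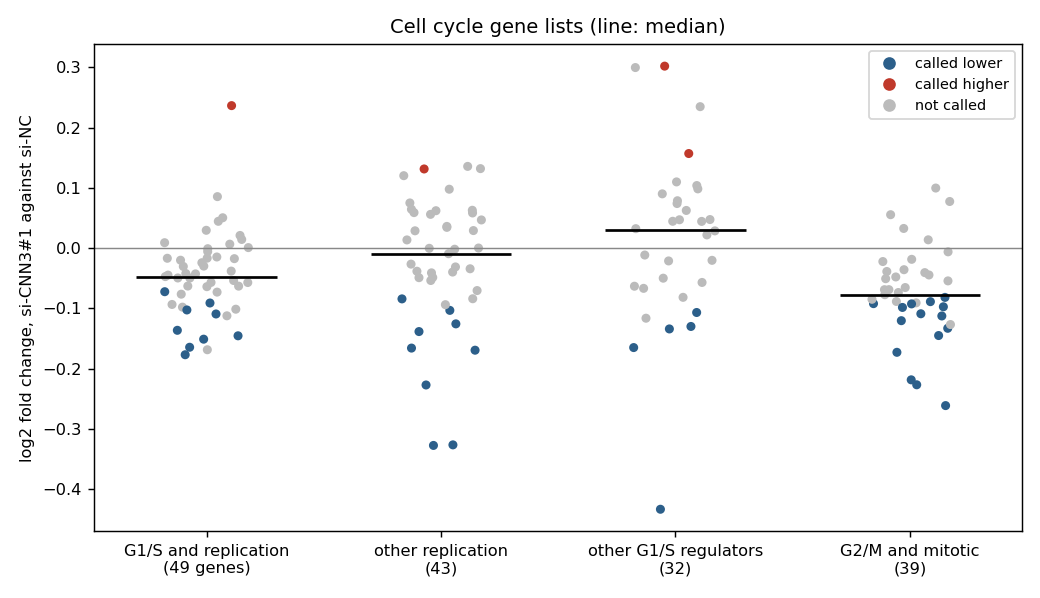
Log2 fold change (y axis, si-CNN3#1 against si-NC) of each tested gene in 4 lists of cell cycle genes, with called genes in colour and a line at the median. The medians are -0.047 for the G1/S and replication genes, -0.0092 for the other replication genes, 0.031 for the other G1/S regulators and -0.077 for the G2/M and mitotic genes.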

How the data were processed

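SiHa cells from 3 independent assays per group were profiled by RNA sequencing from TruSeq libraries. Reads were screened and aligned with TopHat2, and the authors deposited a table of raw counts per Ensembl gene and a table of FPKM. The submitters' processing notes also name Bowtie2 2.0.6, TopHat2 2.0.9, HTSeq and DESeq 1.10.1. The genome build and annotation are not given in the sources used here. Gene names came from GENCODE 29, which named 45342 of the 48162 genes. The groups were taken from the sample labels.

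Counts were tested with edgeR 4.0.16 in R 4.3.3, using TMM normalization, the default filter on low counts and the quasi-likelihood test with condition as the only term, and p-values were adjusted by Benjamini-Hochberg over all 15860 tested genes with a threshold of 0.05. A standard error is the log2 fold change over the root of its F value. Levels are normalized CPM, or the deposited FPKM where genes are compared. The smallest library held 18147028 counts, and the counts behind a gene set its precision. The code was tested on simulated data. The 18 alternatives changed the normalization, the filter, the tool (DESeq2 1.42.0, or limma 3.58.1 on log2 FPKM), the depth, a GC and length correction, the replicate block or the samples included.

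The listed genes and all other lists were chosen with earlier results of these data known. All listed genes are named, with values per sample for the called ones and for those singled out by complex, and from the other lists up to 5 called genes with the smallest p, plus any called gene where 5 or fewer moved in a direction.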

Additional observations from a re-analysis of the deposited data

How the results depend on the processing

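The fall of CNN3 held under all 18 alternatives, with log2 fold changes from -1.06 to -0.92. Of 882 values of the listed genes under the alternatives, 830 kept their side of the threshold, 45 lost a call and 7 gained one, and no called gene changed sign, whereas 15 of the genes not called did in at least 1 alternative. MCM3, MCM6 and PCNA were called in all 18, MCM2 and RFC5 in 17, RRM2 in 15, POLD1 in 11, TYMS in 8, MCM4 in 7 and CHAF1A in 6. The number of listed genes that fell was 9, and it was 5 with total counts only, 6 with upper quartile normalization and 6 with DESeq2. With limma on log2(FPKM + 1) it was 4 for genes with a mean of at least 1 and 2 with no filter, and with limma on log2(FPKM + 0.1) it was 4. The number of all genes called was 2111, and it was 1087 with DESeq2. For limma on log2(FPKM + 1) it was 1363 with a mean of at least 1 and 585 with no filter. For limma on log2(FPKM + 0.1) it was 1353. Leaving out each sample in turn gave 1551 to 1747 genes called, 5 to 10 listed genes lower and 1 to 2 higher. The 5 came without si-NC replicate 2, the 10 without si-NC replicate 3 and the 2 without si-CNN3#1 replicate 3. The median log2 fold change of the listed genes ran from -0.065 to -0.029 over the alternatives. The cause of these differences was not tested.

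Deviations from the group means had correlations of 0.010, 0.033 and 0.028 between same-numbered samples of the groups. Differently numbered samples had -0.027 to -0.00080, so each sample correlated best with its own number. Whether same-numbered samples form pairs was not tested. With the replicate block, 2727 genes were called, and 11 of the listed genes were lower and 1 was higher, the 10 genes called without it together with CCNE1 (adjusted p = 0.0237) and SLBP (adjusted p = 0.0323).

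Over the alternatives, 3 to 11 of the other replication genes were called lower, 1 to 7 of the other G1/S regulators and 3 to 21 of the G2/M and mitotic genes. None of the last list was called higher in any. ASF1B, SAMHD1, TIMELESS, CDK2, CDKN1A, MKI67, KIF20A and AURKB were called in all 18. CCNF was called in 17, TFDP2 and NUSAP1 in 15, EXO1 and CDKN2B in 13, RNASEH2A and CDKN2C in 12 and DNMT1 in 10, and apart from TFDP2, NUSAP1 and CCNF each lost its call when some single library was left out.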
